A study of Mus musculus with 15 samples.

Results

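Knockdown of Rpl11 was compared with a non-targeting siRNA (siNT) in mouse E14 embryonic stem cells, across all genes with a usable signal. The comparison used 6 of the 15 RNA-seq libraries of the study, 3 from siRpl11 and 3 from siNT. Of 24819 genes in the tables, 11903 reached 1 FPKM (fragments per kilobase of transcript, scaled to library size) in at least 2 of these 6 libraries and were tested. The other 9 libraries came from cells given an siRNA against Rpl14, Rpl18 or Rpl23, which encode other proteins of the large ribosomal subunit. All groups were the same line, E14, kept on gelatin in serum with leukemia inhibitory factor, and every group, siNT included, was transfected with siRNA using DharmaFECT. The sample titles give 48 h and the treatment protocol gives 3 days; which one holds was not settled. Polyadenylated RNA was sequenced with a stranded kit.

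Rpl11 belongs to the large (60S) subunit of the ribosome and enters it as part of the 5S ribonucleoprotein, a small particle it forms with 5S rRNA and Rpl5. The same particle can bind Mdm2, the ubiquitin ligase that marks p53 for degradation, so Rpl11 has a known role outside the ribosome in the p53 response to failed ribosome assembly. Loss of most other 60S proteins leaves that particle free to bind Mdm2, which is why Rpl11 and Rpl5 are often treated apart from the rest of the subunit.

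Replicates 1 and 2 of all groups lie in 1 table, and all tests used that table (10 libraries, 2 in each group). The remaining library of each group, here the third, lies in a table that was normalized separately. It entered no test in the values below, and it gives the sign and the size of each difference within its own table. In the sentences that follow, the last of 3 values per group is always the third library, and levels are not to be compared across the tables. Where siRpl11 libraries are said below to lie over, under or apart from siNT libraries, this is meant within each table. Differences are on the log2(FPKM + 1) scale, siRpl11 minus siNT, as estimate ± SE from limma, and "rose" and "fell" mean a Benjamini-Hochberg adjusted p under 0.05. This scale understates the change of genes with low FPKM. Whether replicates were separate cultures is not stated in the labels, so p-values measure the spread between libraries, which may be technical. In bulk RNA, a change in the share of cells of some kind and a change of RNA per cell cannot be told apart.

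The libraries carried the RNA of embryonic stem cells. Pou5f1, the factor that marks pluripotent cells, was at 919, 977 and 1283 FPKM in siNT and at 1043, 1110 and 1490 in siRpl11. Dppa5a, a marker with very high expression in these cells, lay between 3453 and 4350 FPKM in siNT and between 3525 and 3834 in siRpl11. Sox2 was slightly higher in siRpl11, but the other markers chosen for these cells, Nanog, Zfp42, Esrrb, Klf4 and Tdgf1, were lower. Zfp42 went from 591, 643 and 510 FPKM to 296, 318 and 282, and Tdgf1 from 999, 1007 and 747 to 672, 714 and 649. Of 13 markers of fibroblasts and feeder cells, 3 were tested, and the list summed to 18.5 to 21.8 FPKM in siNT and 8.004 to 11.8 in siRpl11. The trophectoderm list summed to 99.1, 101 and 126 FPKM in siNT and 78.15, 80.9 and 79.5 in siRpl11. The primitive endoderm list summed to 187, 181.7 and 193.7 against 163.7, 164.5 and 162.6. The mesoderm list summed to 39.1, 38.4 and 61.1 against 21.6, 23.7 and 26.7, and the neural list is given below. FPKM gives no absolute depth. Read from the step that 1 fragment makes in low values, depth relative to the siNT library listed first in each table was 0.698 for siNT replicate 2, 0.997 and 1.40 for siRpl11 replicates 1 and 2, and 1.29 for the third siRpl11 library. Replicates 1 and 2 correlated across genes with r of 0.996 in both groups.

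The target itself came down. Rpl11 was at 702, 772 and 854 FPKM in siNT and at 168, 187 and 170 in siRpl11, and 24.0% of the siNT level remained in replicates 1 and 2. The difference was -2.05 ± 0.08 (adjusted p = 5.115e-08), and the third libraries gave -2.32. Every siRpl11 library lay far below every siNT library of its table. Rpl5, its partner in the 5S particle, was at 852, 881 and 764 FPKM in siNT and 866, 956 and 854 in siRpl11, overlapping ranges with a difference of 0.07 ± 0.08 (adjusted p = 0.46). Rpl5 passed the threshold with median-ratio scaling alone among the alternatives (0.26).

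Across the transcriptome 3264 genes rose (27.4% of those tested) and 5309 fell (44.6%). Changes of 2-fold or more were fewer, with 241 genes up and 653 down, and 2420 of the called genes changed by under 1.25-fold. The median of all tested genes was -0.12 in the large table and -0.10 in the third libraries. The balance of rises and falls rests on scaling: 38.1% of called genes were higher as deposited, 50.4% after quantile normalization (4198 higher and 4133 lower) and 54.4% after median-ratio scaling (4739 and 3976). The median over all genes shifted by 0.12 and 0.16 under them. Small differences near that size are therefore read only as relative to the whole transcriptome.

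The direction of a difference went with the level of the gene. Tested genes were put into 4 bins of equal size by mean level. In the lowest bin, up to 3.48 FPKM, 450 rose and 1572 fell, with a median of -0.30. The next bins had 606 higher and 1518 lower (median -0.21), then 931 and 1239 (-0.06). In the highest bin, from 28.3 FPKM, 1277 rose and 980 fell, with a median of 0.06. The 100 highest genes of each library held 36.5%, 37.7% and 39.8% of all FPKM in siNT and 39.9%, 41.3% and 44.3% in siRpl11. Between 11349 and 11644 genes reached 1 FPKM in an siNT library, against 10937 to 11004 in an siRpl11 library. Within each table siRpl11 thus had fewer genes over 1 FPKM and a larger share of signal in its top genes. Of the tested genes, 127 were under 1 FPKM in every siNT library and 590 were under it in every siRpl11 library. Those passed through 1 group and had to differ, and they were not taken out of the bins or the totals above. The trend with level was not tested without them. Of the genes named below, Fas, Fgfr2, Fosl1, Gata3, Irx3, Neurog3 and Wnt3 passed through siRpl11 alone, and Hrk, Ocln and Slc1a1 through siNT alone, so their direction was set by the filter. The counts of many lists below include such members, at most 2 through siRpl11 alone and 2 through siNT alone in any list.

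The third libraries gave the same sign for 7878 of the 8573 called genes (91.9%), and for 880 of the 894 genes called at 2-fold or more (98.4%). Among genes not called the signs matched in 60.8%. Across genes, which are not independent replicates, the third-library difference followed the large-table difference with r of 0.83 and a slope of 0.775.

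**Figure D1:**
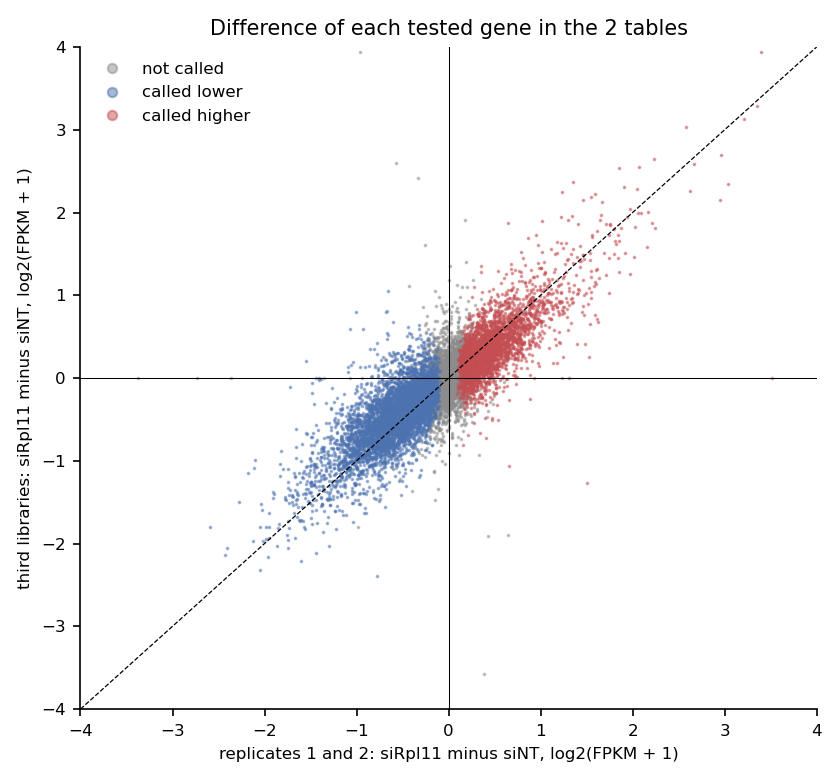
Each point is a tested gene, with its siRpl11 minus siNT difference (log2 of FPKM + 1) in replicates 1 and 2 on the x axis and in the third libraries on the y axis; blue and red mark genes called lower and higher, grey genes not called, and the dashed line marks equal values. Points run along the diagonal with a slope of 0.775, and 3 of the 11903 genes lie outside the plotted range.

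The genes with the largest rises, among those at 5 FPKM or more with the same sign in the third libraries, were led by Gadd45g, a stress-inducible inhibitor of growth, at 1.32, 1.47 and 1.17 FPKM in siNT and 25.2, 23.2 and 32.1 in siRpl11 (3.40 ± 0.06). Pim2, a serine/threonine kinase that promotes survival, was at 10.7, 10.3 and 11.4 FPKM and reached 105, 105 and 107 (3.21 ± 0.06). Otx2, a homeodomain factor of the formative epiblast, was at 9.03, 8.34 and 13.7 FPKM and reached 78.0, 78.6 and 74.1 (3.04 ± 0.05). For each of these genes all siRpl11 libraries stood several-fold over all siNT libraries, in both tables. That separation follows in part from the choice of genes by size and by sign in the third libraries. The same limit applies to the falls below and to list members named for a large difference. Lack of overlap, for these or any gene below, adds no separate support, and the share of all tested genes without overlap was not counted. The transcription factor genes Nkx2-9 (3.35), Sall2 (2.96), Foxi3 (2.95), Irx3 (2.66), Lef1 (2.24) and Neurod1 (2.23) were also among the leading rises. Plk2, a polo-like kinase induced by stress, rose by 2.58, the cell surface protein Tspan8 by 2.63, the corepressor Bcor by 2.21, R3hdml by 2.17, the chromatin repressor Bend3 by 2.15 and Perp, a p53-induced membrane protein, by 2.05.

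The largest fall by the same criteria was that of Nupr1, a small chromatin protein induced by nutrient and stress signals, from 56.6, 57.6 and 42.0 FPKM in siNT to 8.13, 9.19 and 11.3 in siRpl11 (-2.59 ± 0.13). Vegfa, the angiogenic growth factor, was at 29.8, 27.1 and 20.01 FPKM and went to 4.25, 4.67 and 3.75 (-2.43 ± 0.10). Inhbb, the activin beta B subunit, went from 39.4, 38.2 and 25.7 to 6.61, 6.43 and 5.43 (-2.40 ± 0.07). No siRpl11 library reached the lowest siNT library of its table for any of them. The other large falls included the enzymes Pycr1 of proline synthesis (-2.18), Phgdh of serine synthesis (-2.12), Pfkp of glycolysis (-2.02), Pgm2, a phosphoglucomutase (-1.98), and Chac1, which degrades glutathione (-1.96). The remaining ones were Lrrc31 (-2.27), the nuclear RNA Neat1 (-2.10), the class I histocompatibility gene H2-K1 (-2.05), Kdelr3, a receptor that returns proteins to the endoplasmic reticulum (-2.04), Tmem50b (-2.03) and Ndrg2 (-1.99). Neat1 had the smallest difference of these in the third libraries, -0.99, from 43.6 to 21.5 FPKM.

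**Figure D2:**
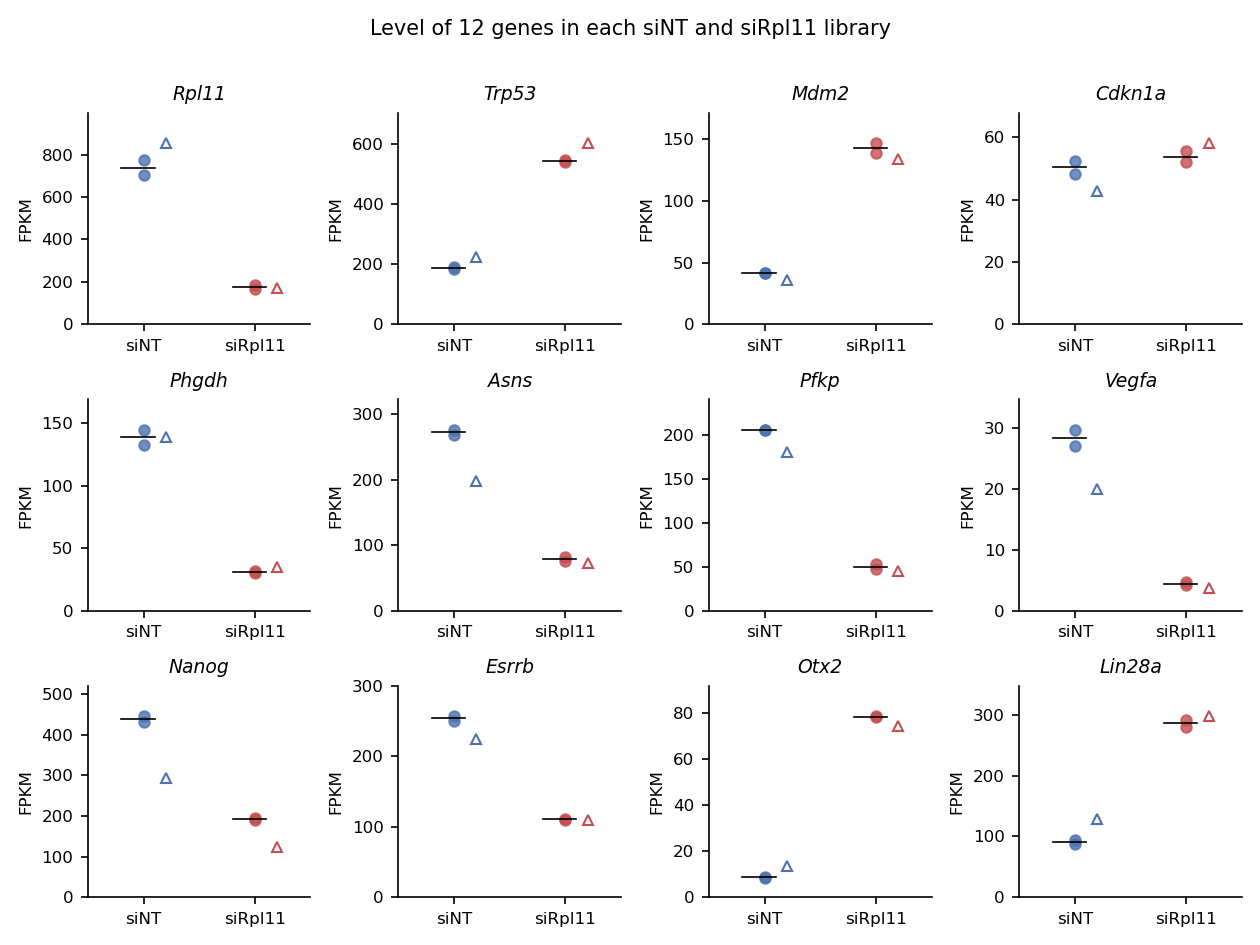
FPKM of 12 genes in each library of siNT (blue) and siRpl11 (red); filled circles are replicates 1 and 2, short lines their mean, and open triangles the third library, which comes from a separately normalized table. Within each table, Rpl11, Phgdh, Asns, Pfkp, Vegfa, Nanog and Esrrb were lower in every siRpl11 library than in every siNT library. By the same measure Trp53, Mdm2, Otx2 and Lin28a were higher, while Cdkn1a overlapped in replicates 1 and 2.

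The lists below were gathered by role, and each is given by its tested members and its calls, many also by a median. The counts are to be read beside the 27.4% of all tested genes that rose and the 44.6% that fell, and the medians beside the -0.12 of all genes. The falls in the Bcl2 family, amino acid transporter, Wnt, trophectoderm and germline lists lie not far from that share and are not read as results about those lists. Other proteins of the 60S subunit were mostly flat or slightly higher. Of 46, 21 rose and 2 fell, with a median of 0.19 (0.26 in the third libraries). The split moved with scaling, to 18 higher and 12 lower after quantile normalization and 40 and 2 after median-ratio scaling. Rpl3, a core protein of the peptidyl transferase region, was the exception: it was at 1345, 1414 and 1380 FPKM in siNT and at 705, 746 and 748 in siRpl11 (-0.93 ± 0.06, adjusted p = 9.5e-07). Its libraries did not overlap, and nearly the same drop appeared in each table. The only other 60S gene that fell was Rpl10a (-0.45). Rises included those of Rpl23a (0.59), Rpl36 (0.55) and Rpl30 (0.55).

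Proteins of the small (40S) subunit had 22 of 32 members higher and 2 lower, with a median of 0.28. Rps2 went from 2728, 2737 and 3858 FPKM to 4130, 4258 and 6189 (0.62 ± 0.06). In each table the siRpl11 libraries were the higher ones. The 40S genes that fell were Rps20 (-0.27) and Rps25 (-0.26). After quantile normalization 19 were higher and 3 lower. Many processed pseudogenes of ribosomal protein genes exist, so single values are uncertain where reads could be shared.

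Factors that build the ribosome also had more rises than falls. Of 45 proteins of the 5S particle and of 60S assembly, 31 rose and 4 fell (median 0.23), and of 52 proteins of RNA polymerase I and small-subunit processing, 38 rose and 5 fell (median 0.30). Nop58, a core protein of box C/D small nucleolar particles, was at 151, 144 and 190 FPKM in siNT and 343, 323 and 399 in siRpl11 (1.17 ± 0.05). Polr1a, the largest subunit of RNA polymerase I, went from 36.8, 35.9 and 41.2 FPKM to 67.7, 67.5 and 64.8 (0.88 ± 0.04). Npm1, an abundant nucleolar chaperone, went from 1527, 1508 and 2198 to 2573, 2385 and 3214 (0.71 ± 0.06). All siRpl11 values of these genes lay over all siNT values within each table. Nmd3, the export adaptor of the 60S particle (0.77), Nifk (0.76), Rrs1, which helps to load the 5S particle (0.74), and Brix1 (0.71) led the 60S assembly factors, Rrp12 (1.00) and Tsr1 (0.75) the small-subunit factors. Senp3, a nucleolar SUMO protease, fell (-0.68).

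Genes that host small nucleolar RNAs in their introns did not move as 1 group: of 15, 5 rose and 6 fell (5 and 4 after median-ratio scaling). Snhg1 went from 228, 215 and 154 FPKM to 416, 404 and 279 (0.89 ± 0.07), whereas Snhg11 went from 13.6, 12.3 and 8.82 to 4.21, 3.68 and 4.59 (-1.50 ± 0.09). Both separated the groups within each table, in opposite directions. Snhg15 rose (0.81), and Snhg20 (-1.47) and Snhg8 (-0.86) fell.

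Mitochondrial ribosomal proteins had 42 of 76 members higher and 10 lower, with a median of 0.18, and 61 and 5 after median-ratio scaling. Mrps18b rose by 0.76, Mrps18c by 0.73 and Mrpl52 by 0.70, and Mrpl24 fell by 0.70. Translation factors were divided, with 17 of 39 higher and 9 lower (26 and 4 after median-ratio scaling). Eif1, which guards start codon choice, was at 360, 344 and 309 FPKM in siNT and 732, 686 and 496 in siRpl11 (1.01 ± 0.05). Eif2s2, the beta subunit of the factor that carries the initiator tRNA, went the other way, from 189, 188 and 302 to 108, 100 and 162 (-0.85 ± 0.04). Eif3e rose by 0.82, Eif4g2 by 0.70 and Eif5 by 0.62.

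Genes of p53 control rose together with p53 itself. Of 11 genes for p53 and its feedback regulators, 9 rose, with a median of 0.54 (0.99 in the third libraries). The other 2 were not called, Mdm4 (-0.12, and 0.49 in the third libraries) and Cop1 (0.10). With the replicate number as a block, Mdm4 was called lower (adjusted p = 0.007). Trp53, the gene of p53, was at 189, 182 and 223 FPKM in siNT and 545, 540 and 602 in siRpl11 (1.54 ± 0.04, adjusted p = 6.8e-09). Mdm2 was at 42.0, 41.2 and 36.3 FPKM and reached 147, 139 and 134 (1.76 ± 0.04). Both genes separated the groups by a wide margin within each table. Rchy1, another ubiquitin ligase of p53, rose by 1.15, Trp53inp1, a partner in p53 phosphorylation, by 1.11, the nuclease Aen by 0.83, the cyclin Ccng1 by 0.54, the phosphatase Ppm1d by 0.52, the RNA-binding protein Zmat3 by 0.34 and the deubiquitinase Usp7 by 0.21. The Usp7 call ended without siRpl11 replicate 1 (adjusted p = 0.052). Cop1 passed after quantile normalization (0.34) and median-ratio scaling (0.24).

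Targets of p53 further downstream split. Of 33 targets in arrest, repair and metabolism, 16 rose and 10 fell, and the median was 0.09 in the large table and 0.54 in the third libraries; after median-ratio scaling 21 rose and 8 fell. Phlda3, an inhibitor of Akt, went from 33.0, 31.1 and 17.8 FPKM to 99.7, 97.8 and 87.2 (1.59 ± 0.04). Cdkn1a, the gene of p21, an inhibitor of the cell cycle, was at 52.5, 48.3 and 42.7 FPKM in siNT and at 52.1, 55.7 and 58.2 in siRpl11 (0.09 ± 0.06, adjusted p = 0.19). Its groups overlapped in replicates 1 and 2, and the third libraries differed by 0.44. Cdkn1a passed with median-ratio scaling (0.28) and in the fits that took in the third libraries (0.21). Tap1, a peptide transporter, rose by 1.43 and the kinase Ak1 by 0.97, while Gdf15, a secreted stress factor, fell from 11.2, 9.71 and 6.97 to 4.75, 4.74 and 5.41 FPKM (-0.99 ± 0.08). Repair genes of this list went both ways: Xpc (-0.71), Ddb2 (-0.69) and Polh (-0.62) fell, Ercc5 (0.42) and Gadd45a (0.51) rose, and Polk (0.03) and Rrm2b (-0.16) were not called; these were chosen after their values were seen.

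The p53 targets of cell death had 7 of 15 members higher and 5 lower, with a median of 0.13 (10 and 2 after median-ratio scaling). Fas, a death receptor, was at 0.194, 0.166 and 0.172 FPKM in siNT and at 3.45, 2.52 and 2.20 in siRpl11 (1.75 ± 0.12); it passed the filter through siRpl11 alone. Perp went from 9.03, 9.53 and 6.63 FPKM to 41.7, 41.6 and 29.5, and Eda2r, a receptor of the tumour necrosis factor family, from 15.2, 16.1 and 18.2 to 39.6, 39.0 and 58.5 (1.28 ± 0.05). In both genes the groups stood apart in each table. Apaf1 of the apoptosome rose by 0.49 and Ei24 by 0.49. In the Bcl2 family, which sets the threshold for mitochondrial death, 4 of 16 rose and 9 fell (7 and 8 after median-ratio scaling), with Bik at -0.97, Bmf at -0.91, Hrk at -0.85, Bcl2l2 at -0.81 and Bok at -0.72.

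Genes of amino acid supply fell strongly. The transcription factor ATF4 switches these genes on when amino acids run short or the endoplasmic reticulum is stressed, and it often binds a short composite element made of a CCAAT-enhancer part and an ATF part. Of 19 enzymes of serine, proline, asparagine and one-carbon synthesis, 16 fell and 2 rose, with a median of -1.07 (-0.87 in the third libraries). Phgdh, the first enzyme of serine synthesis, was at 132, 145 and 139 FPKM in siNT and 30.2, 31.9 and 34.8 in siRpl11 (-2.12 ± 0.07). Asns, which makes asparagine, went from 268, 276 and 198 to 76.0, 81.7 and 72.4 (-1.78 ± 0.06), and Pycr1 from 21.7, 20.2 and 9.01 to 3.69, 4.004 and 3.52. All siRpl11 libraries were under all siNT libraries for the 3 genes. Aldh18a1 of proline synthesis fell by 1.64 and Gpt2, a transaminase, by 1.52. The rises were Pycrl (0.58) and Mthfd1 (0.15).

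Of 20 cytosolic aminoacyl-tRNA synthetases, which load tRNAs with amino acids, 15 fell and 2 rose, with a median of -0.60 (13 and 4 after median-ratio scaling). Sars was at 108, 110 and 98.6 FPKM in siNT and 42.0, 45.2 and 43.5 in siRpl11 (-1.30 ± 0.07). Cars fell by 1.08, Nars by 1.01, Yars by 0.99 and Aars by 0.90. Of 19 regulators and effectors of the ATF4 response, 14 fell and 3 rose, with a median of -0.50. Besides Nupr1 and Chac1, Jdp2, a leucine zipper repressor, went from 5.88, 5.49 and 6.58 FPKM to 0.992, 1.11 and 1.68 (-1.70 ± 0.10). The secreted Stc2 fell by 1.32 and the pseudokinase Trib3 by 1.12. Atf4 itself changed less: it was at 191, 194 and 142 FPKM in siNT and 156, 157 and 132 in siRpl11 (-0.30 ± 0.04). It was lower in siRpl11 within each table, by a small amount in the third libraries (-0.10). The rises were Ppp1r15a (0.73), Sesn2 (0.59) and Ddit4 (0.38); the latter pair are also p53 targets.

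Amino acid transporters were mixed, with 9 of 17 lower and 5 higher (7 and 8 after median-ratio scaling). Slc1a5, a glutamine and serine exchanger, went from 40.3, 37.9 and 29.2 FPKM to 10.6, 11.3 and 11.03 (-1.74 ± 0.06). Slc38a2, a sodium-coupled transporter of neutral amino acids, went the other way, from 77.3, 77.97 and 115 to 171, 172 and 196 (1.13 ± 0.04). Slc1a4 fell by 1.44, Slc7a1 by 1.26 and Slc1a1 by 0.91.

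Promoters of these genes were searched for the ATF4 composite element, because members of 4 lists that it is known to control were compared. The search used RefSeq windows of 250 bases before to 50 after each gene's start (build GRCm38.p6, not the mm9 of the files) and the letters TGATGNAA on both strands. Windows were found for 9364 of the 11903 tested genes, and 236 of them (2.52%) held the letters. The share was 6 of 18 ATF4 response genes (33.3%), 5 of 13 aminoacyl-tRNA synthetases (38.5%), 3 of 15 synthesis enzymes (20%) and 3 of 13 transporters (23.1%). All 14 matching genes of the first 3 lists fell, and so did 2 of the 3 matching transporters. Most tested members of those 3 lists fell in any case (14 of 19, 15 of 20 and 16 of 19), against 44.6% of all tested genes. These counts therefore cannot link the letters to the fall, and the falls among matching genes outside the lists were not counted. A match is a description of letters, not a bound site. The upstream stretch around the match is given for 7 genes that fell, to let the shared element be read in its setting; each reads 5′ to 3′ on the strand of its gene, and capitals mark the match.
Asns (chr6:7693210-7693262, minus strand): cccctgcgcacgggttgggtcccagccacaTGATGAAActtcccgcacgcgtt
Pycr1 (chr11:120643814-120643881, minus strand): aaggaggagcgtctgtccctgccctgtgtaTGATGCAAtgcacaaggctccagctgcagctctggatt
Chac1 (chr2:119351019-119351086, plus strand): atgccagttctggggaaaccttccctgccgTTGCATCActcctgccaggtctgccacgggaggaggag
Nupr1 (chr7:126625543-126625610, minus strand): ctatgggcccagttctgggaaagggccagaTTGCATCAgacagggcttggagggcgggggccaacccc
Jdp2 (chr12:85599353-85599415, plus strand): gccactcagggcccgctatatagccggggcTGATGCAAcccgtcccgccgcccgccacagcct
Aars (chr8:111033700-111033767, plus strand): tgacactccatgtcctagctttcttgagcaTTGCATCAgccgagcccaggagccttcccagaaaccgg
Tars (chr15:11399659-11399703, minus strand): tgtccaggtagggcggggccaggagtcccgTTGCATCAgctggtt

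The match began 23 bases before the start in Asns, 103 in Pycr1, 193 in Chac1, 110 in Nupr1, 33 in Jdp2, 112 in Aars and 15 in Tars. The Aars window held 2 matches, of which the first is printed. Chac1, Nupr1, Aars and Tars carried it in reverse orientation. The size of the fall differed widely among these genes, from -2.59 in Nupr1 to -0.40 in Tars. Tars was at 101, 109 and 103 FPKM in siNT and at 77.97, 80.8 and 87.9 in siRpl11.

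Glycolysis, which splits glucose to pyruvate, was the most uniform of the metabolic lists. Of 21 genes, 20 fell, with a median of -0.68, and the third libraries gave a negative difference for all 21. The gene that was not called was Gapdh (-0.04, adjusted p = 0.63), at 3014, 3123 and 5425 FPKM in siNT and 2882, 3084 and 5235 in siRpl11. Pfkp, the platelet form of phosphofructokinase, was at 206, 206 and 181 FPKM and went to 47.4, 53.1 and 45.4 (-2.02 ± 0.09). Hk1, a hexokinase, went from 24.8, 22.8 and 22.8 to 6.64, 6.44 and 8.30 (-1.72 ± 0.06), and Tpi1, the triose phosphate isomerase, from 608, 658 and 682 to 288, 313 and 307 (-1.07 ± 0.08). Pfkp, Hk1 and Tpi1, named for a large difference, showed no overlap between groups within each table. The aldolase Aldoc fell by 1.64 and the enolase Eno2 by 1.29.

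Other genes induced by hypoxia through HIF factors fell as well, 14 of 19 against 2 that rose, with a median of -0.83 (-0.93 in the third libraries). After quantile normalization 13 fell and 4 rose. Besides Vegfa, Bnip3, a mitophagy receptor, went from 170, 164 and 161 FPKM to 51.2, 58.8 and 54.1 (-1.59 ± 0.12). Egln1 and Egln3, prolyl hydroxylases that mark HIF factors for degradation, fell by 1.53 and 1.38, and Ndrg1 by 1.44. Hif1a itself rose, from 24.2, 22.02 and 26.4 FPKM to 37.4, 33.6 and 37.0 (0.60, adjusted p = 7.8e-05). The other rise was Kdm3a (0.28). The core letters of a HIF site, TACGTG on either strand, were in 4.55% of all promoter windows, in 4 of 15 of this list (26.7%) and in 4 of 20 glycolysis genes (20%). All 4 matching hypoxia genes and 3 of the 4 matching glycolysis genes fell. As 14 of 19 and 20 of 21 tested members of these lists fell, this does not link the letters to the fall. Stretches upstream of genes that fell are shown with the match in capitals, on the strand of each gene in GRCm38.p6.
Egln1 (chr8:124949288-124949353, minus strand): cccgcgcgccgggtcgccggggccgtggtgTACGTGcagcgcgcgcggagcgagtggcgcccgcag
P4ha1 (chr10:59323250-59323295, plus strand): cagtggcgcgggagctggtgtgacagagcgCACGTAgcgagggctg
P4ha2 (chr11:54100815-54100880, plus strand): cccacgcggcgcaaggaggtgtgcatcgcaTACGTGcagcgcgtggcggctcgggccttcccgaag
Pgam1 (chr19:41911726-41911791, plus strand): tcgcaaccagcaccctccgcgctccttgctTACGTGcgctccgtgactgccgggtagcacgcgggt

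These matches began 69 bases before the start in Egln1, 16 in P4ha1, 79 in P4ha2 and 115 in Pgam1. P4ha1 and P4ha2 encode prolyl hydroxylases of collagen and fell by 0.89 and 1.12; Pgam1, the phosphoglycerate mutase, fell by 0.42. Letters of 2 other elements were searched in the same way. TCACNCCAC, the letters of a sterol response element, were in 1.40% of all windows and in 0 of 21 genes of cholesterol and fatty acid synthesis. TCACGTGA, a palindrome found at lysosomal genes, was in 2.29% of all windows and in 5 of 29 lysosomal genes (17.2%), of which 2 fell.

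Lipid synthesis went down as a group. Of 31 genes of cholesterol and fatty acid synthesis, 27 fell and 2 rose, with a median of -0.54, and all 31 were negative in the third libraries. Srebf2, the gene of the master regulator of sterol synthesis, went from 67.4, 61.7 and 59.3 FPKM in siNT to 29.0, 26.8 and 33.5 in siRpl11 (-1.18 ± 0.06). Its groups were separated by a clear gap. Insig1, which retains that regulator in the endoplasmic reticulum, fell by 1.25, and the desaturases Scd2 and Scd1 by 1.21 and 1.15. The rises were Ebp (0.41), which was lower in the third siRpl11 library, and Hsd17b7 (0.25).

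Lysosomal proteins had 25 of 36 members lower and 7 higher, with a median of -0.44. Gusb, a glucuronidase, fell by 1.36, the sialidase Neu1 by 1.09 and the lipase Lipa by 0.86. A pair of related regulators of lysosomal genes moved apart. Tfeb went from 28.1, 30.3 and 41.4 FPKM to 12.3, 12.4 and 20.1 (-1.18 ± 0.07), and Tfe3 from 27.0, 25.2 and 28.3 to 89.4, 83.8 and 82.6 (1.69 ± 0.06). Neither gene showed overlap between groups within a table.

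Genes for chaperones of the endoplasmic reticulum and the unfolded protein response fell in 15 of 22 cases and rose in 4, with a median of -0.38 (12 and 6 after median-ratio scaling). Hsp90b1, an abundant chaperone, went from 250, 245 and 246 FPKM to 129, 123 and 119 (-0.96 ± 0.04). Ero1l, an oxidase of protein folding, fell by 1.38, Xbp1, a transcription factor of this response, by 1.05, Pdia6 by 0.99 and Herpud1 by 0.77. The nuclear genes of oxidative phosphorylation were split, with 25 of 75 higher and 18 lower and a median of 0.03. The counts were 28 and 25 after quantile normalization and 45 and 6 after median-ratio scaling. Uqcrb rose by 0.80 and Ndufb9 by 0.77, and Uqcr11 fell by 0.69 and Uqcrq by 0.66. Proteasome subunits had 10 of 32 higher and 10 lower, with Psmc5 at 0.74 and Psmd3 at -0.75. Quantile normalization gave 9 higher and 12 lower, and median-ratio scaling 16 and 1.

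**Figure D3:**
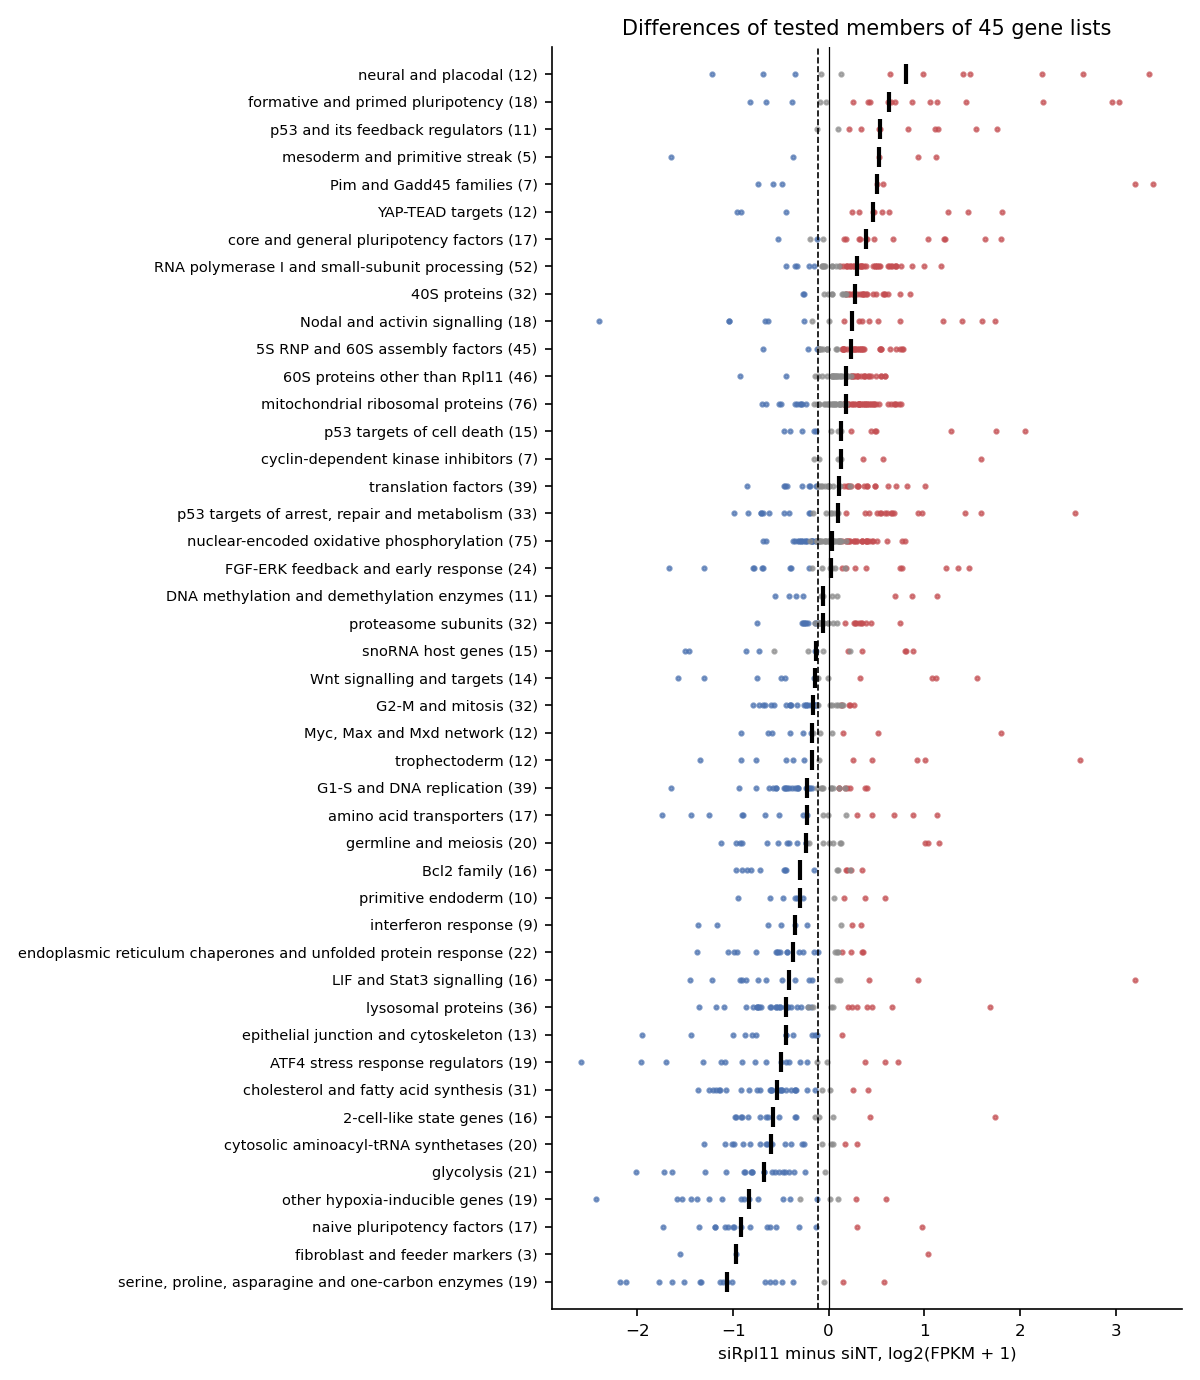
Differences (siRpl11 minus siNT, log2 of FPKM + 1) of the tested members of 45 gene lists, with the number tested in parentheses; red points rose, blue points fell, grey points were not called, black ticks mark list medians and the dashed line the median of all genes (-0.12). Serine and proline enzymes (median -1.07), naive pluripotency factors (-0.92) and glycolysis (-0.68) lie to the left, and formative pluripotency (0.63) and p53 regulators (0.54) to the right.

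Pluripotency genes moved by stage. Naive factors hold the ground state of the early epiblast, and formative factors mark the step toward lineage competence. Of 17 naive factors, 15 fell and 2 rose, with a median of -0.92 (-0.91 in the third libraries). Nanog was at 431, 446 and 293 FPKM in siNT and 189, 195 and 123 in siRpl11 (-1.19 ± 0.04, adjusted p = 2.7e-08). Esrrb, a nuclear receptor of the naive network, went from 257, 251 and 225 to 110, 112 and 110 (-1.19 ± 0.04), and Tfcp2l1 from 90.0, 82.5 and 80.6 to 25.5, 24.9 and 29.6 (-1.73 ± 0.07). For the 3 genes the siRpl11 libraries lay below all siNT libraries. Klf5 fell by 1.35 and Prdm14 by 1.08. The rises were Dppa3 (0.97) and Fbxo15 (0.30).

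Core factors, shared by naive and later pluripotent states, went the other way, with 13 of 17 higher and 2 lower and a median of 0.39. Sox2 rose slightly, from 220, 215 and 292 FPKM to 276, 266 and 324 (0.31 ± 0.04), and Pou5f1 by 0.18 ± 0.06 (adjusted p = 0.018). Pou5f1 lost its call when siNT replicate 1 (0.14) or siRpl11 replicate 2 (0.14) was left out. Larger rises were those of Mycn, from 42.1, 39.7 and 48.9 to 147, 142 and 174 FPKM (1.80 ± 0.04), and of Lin28a, the RNA-binding protein that blocks let-7, from 94.7, 88.2 and 128 to 292, 280 and 298 (1.64 ± 0.04). Mycn and Lin28a separated the groups in all libraries. The zinc finger factors Zscan10 and Sall4 rose by 1.21 and 1.20 and Dppa2 by 1.04. The falls were Tdgf1 (-0.53) and Dppa4 (-0.13).

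Of 18 tested formative and primed genes, out of 22 in the list, 13 rose and 3 fell, with a median of 0.63. Beside Otx2, Sall2 went from 2.20, 2.02 and 2.27 FPKM to 24.0, 22.4 and 20.2, Lef1 from 3.41, 3.65 and 4.75 to 21.6, 19.3 and 19.2, and Pou3f1, a POU factor of the postimplantation epiblast, from 3.26, 2.96 and 4.11 to 11.2, 9.12 and 12.6. Each of these genes was higher in every siRpl11 library. The de novo DNA methyltransferases were part of this group: Dnmt3a rose by 1.14, Dnmt3b by 0.87 and their cofactor Dnmt3l by 0.70. Tcf15 (-0.82), Hes6 (-0.66) and Tead2 (-0.38) fell. In the wider list of 11 enzymes of DNA methylation and its removal, 3 rose and 4 fell (5 and 3 after median-ratio scaling). Dnmt1 was not called (0.09); it passed after median-ratio scaling (0.27) and without siNT replicate 1 (0.16). Uhrf1, its targeting partner, fell by 0.56, Tet2 by 0.34 and Mbd4 by 0.41, and Tdg by 0.27, a call that ended under 8 of the other settings.

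Signalling by leukemia inhibitory factor sustains naive genes through Stat3. Of 16 members, 11 fell and 3 rose, with a median of -0.42 (9 and 5 after either rescaling). Socs3, a feedback inhibitor and direct Stat3 target, went from 108, 106 and 62.1 FPKM to 46.2, 44.6 and 46.0 (-1.22 ± 0.04), with a smaller difference in the third libraries (-0.43). Bcl3 fell by 1.45 and Junb by 0.93. The rises were Pim2, Stat3 itself (0.42) and Lif (0.93), also a p53 target. The other kinases of the Pim family moved against Pim2, with Pim1 at -0.49 and Pim3 at -0.74; Pim1 was level in the third libraries (0.02). In the Gadd45 family, Gadd45a rose by 0.51 and Gadd45b fell by 0.59.

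Feedback genes of FGF and ERK signalling were divided, with 9 of 24 higher and 9 lower (12 and 7 after median-ratio scaling). Spry4 went from 126, 119 and 93.8 FPKM to 49.4, 48.3 and 45.5 (-1.31 ± 0.04), while the phosphatase Dusp4 went from 3.90, 4.40 and 8.96 to 14.1, 12.4 and 15.8 (1.47 ± 0.07). Ier3 fell by 1.67, and Fosl1 and Fgfr2 rose by 1.35 and 1.22. Nodal signalling had 10 of 18 higher and 6 lower. Lefty1, a Nodal inhibitor and target, went from 33.2, 33.3 and 66.6 FPKM to 107, 99.8 and 110 (1.61 ± 0.04). The ligand Gdf3 rose by 1.40 and the cofactor Foxh1 by 1.19, against the fall of Inhbb. Within each table the siRpl11 libraries were higher for Lefty1.

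Among 14 tested Wnt genes, 4 rose and 7 fell (5 and 5 after median-ratio scaling). Tcf7l1, a repressor of naive genes, went from 12.4, 11.1 and 14.2 FPKM to 38.0, 35.0 and 48.6 (1.56 ± 0.07). The Wnt targets Notum and Cdx1 went down, Notum from 13.4, 13.3 and 13.5 to 3.81, 3.83 and 3.37 (-1.58 ± 0.07) and Cdx1 from 5.15, 4.48 and 5.57 to 1.38, 1.32 and 1.48 (-1.30 ± 0.08). All 3 genes kept the groups apart. The receptor Fzd7 rose by 1.08. Wnt3 went from 0.0501, 0.0949 and 0.0613 FPKM to 1.27, 1.39 and 0.910, and passed the filter through siRpl11 alone.

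Targets and members of the YAP and TEAD pathway had 9 of 12 higher and 3 lower, with a median of 0.47. Cyr61, a secreted matrix protein and direct target, went from 3.84, 4.35 and 5.62 FPKM to 17.0, 16.7 and 19.9 (1.81 ± 0.06), Ctgf rose by 1.45 and Amotl2 by 1.25. The coactivator Wwtr1 fell by 0.96 and Tead4 by 0.91. Of 15 genes of epithelial junctions and the cytoskeleton, 13 were tested. Of these, 12 fell (10 after quantile normalization and 9 after median-ratio scaling), with a median of -0.45. The list also names Vim, Fn1 and Cdh2, which are not particular to epithelia, so the count is not one of epithelial genes alone. Cldn4, a tight junction protein, went from 54.5, 48.4 and 63.8 FPKM to 12.8, 12.2 and 19.99 (-1.95 ± 0.06). Cldn3 fell by 1.44, Cldn7 by 1.00, Ocln by 0.88 and Krt19 by 0.80.

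Lineage lists held few tested genes at mostly low levels. Of 26 neural and placodal genes, 12 were tested, and 7 rose and 3 fell; 2 of the 12, Irx3 and Neurog3, passed the filter through siRpl11 alone and 1 through siNT alone. Neurod1 went from 2.05, 2.39 and 0.983 FPKM to 14.1, 14.1 and 11.4, and Irx3 from 0.261, 0.420 and 0.225 to 7.87, 7.10 and 6.35. Neurog3 rose by 1.48 and Pax6 by 1.41. Summed over the list, the level was 86.8, 90.4 and 122 FPKM in siNT and 99.7, 97.4 and 104 in siRpl11, so the sum was higher in siRpl11 in the large table and lower in the third libraries. Of 12 trophectoderm genes tested, 5 rose and 6 fell (5 and 3 after quantile normalization), with Tspan8 and Gata3 (1.00) up and Lgals3 (-1.35) down. Of these 12, 1 passed the filter through siRpl11 alone and 2 through siNT alone. Of 10 primitive endoderm genes, 3 rose and 6 fell (3 and 3 after quantile normalization), and 2 passed through siRpl11 alone and 1 through siNT alone. Of 5 mesoderm genes, 3 rose and 2 fell (3 and 1 after quantile normalization), and 1 passed through siRpl11 alone. The filter set the direction of those members. Bmp4, a signal of the extraembryonic ectoderm and mesoderm, went from 29.99, 29.8 and 51.7 FPKM to 8.61, 9.14 and 15.5 (-1.65 ± 0.07).

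Genes of the 2-cell-like state, a rare state of stem cells that resembles the early embryo, were mostly lower in the large table. Of 32 genes in that list, 16 were tested, and 11 fell and 2 rose, with a median of -0.58. The third libraries gave a smaller median, -0.27, with 10 members negative and 6 positive. After quantile normalization 9 fell and 3 rose, and in the fits that took in the third libraries 9 fell and 1 rose. Zscan4d, which acts at telomeres, was at 21.9, 23.9 and 4.82 FPKM in siNT and 12.3, 11.1 and 2.31 in siRpl11 (-0.91 ± 0.08). The fall was seen within each table, though the third siNT library lay below all siRpl11 values of the other table. The rises were Zfp750 (1.74) and Zfp560 (0.43). Zscan4 and Usp17l genes are near-identical copies that can share reads, so the single values are uncertain. Germline genes had 3 of 20 higher and 11 lower (5 and 6 after quantile normalization), with a median of -0.23. In the third libraries the median was 0.10, with 13 members positive and 7 negative. Of the 14 called members, 9 kept their sign there. Sycp3 fell by 1.13, and Taf7l, Hormad1 and Mael rose by 1.15, 1.04 and 1.01. Of 9 tested interferon response genes, out of 21, 6 fell and 2 rose (5 and 3 after median-ratio scaling), with Stat2 at -1.37 and Oas1a at -1.17.

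Cell cycle genes moved by small amounts. Of 39 genes of the G1-S step and DNA replication, 23 fell and 7 rose, with a median of -0.22, and of 32 genes of G2 and mitosis, 20 fell and 5 rose, with a median of -0.17. Quantile normalization gave 25 and 9 for the first list and 20 and 5 for the second. Median-ratio scaling took these to 16 and 13 and to 11 and 11, so the balance rests on scaling. E2f2, an activating E2F factor, went from 10.8, 11.6 and 7.34 FPKM to 3.04, 2.72 and 2.44 (-1.65 ± 0.08), and Ccnd3, a D-type cyclin, from 198, 197 and 194 to 103, 103 and 112 (-0.93 ± 0.04). Both were lower in every siRpl11 library. Ccnb2 fell by 0.79 and Cdk1 by 0.73. Of 7 cyclin-dependent kinase inhibitors tested, 3 rose and the other 4 were not called. Cdkn2b, which encodes p15, went from 0.600, 0.898 and 1.28 FPKM to 4.55, 4.01 and 4.65 (1.60 ± 0.09), and Cdkn2a rose by 0.57 and Cdkn1c by 0.36. In the Myc network, Mycn rose while Myc was at 21.4, 22.8 and 30.03 FPKM in siNT and 19.7, 19.5 and 20.6 in siRpl11 (-0.17 ± 0.08, adjusted p = 0.095). Myc passed with the groups fitted alone (-0.17) and with the third libraries included (-0.29). The dimer partners Mxi1 and Mxd3 fell by 0.92 and 0.64 and Mga rose by 0.52.

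To see where siRpl11 differed from loss of other 60S proteins, it was set against the mean of siRpl14, siRpl18 and siRpl23 in the same fit, without siNT. In this contrast 2250 genes were higher in siRpl11 (18.9%) and 5030 lower (42.3%), with a median of -0.10. Scaling turned the balance, since 30.9% of called genes were higher as deposited, 58.5% after quantile normalization and 58.2% after median-ratio scaling. Counts under quantile normalization, median-ratio scaling or both are therefore given beside those as deposited.

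Most p53 targets were lower in siRpl11. Of 33 p53 targets of arrest, repair and metabolism, 28 were lower in siRpl11 and the other 5 were not called (median -0.46). Of 15 targets of cell death, 14 were lower and 1 was not called (median -0.66). For the first list the counts were 24 lower and 1 higher after quantile normalization and 22 and 1 after median-ratio scaling, and for the second 12 and 11 were lower. The 11 genes for p53 and its feedback regulators were divided, with 2 higher and 6 lower (4 and 5 after median-ratio scaling). Mdm2 stood at 143 ± 5.5 FPKM in siRpl11 (SD, n = 2), 275 in siRpl14, 372 in siRpl18 and 350 in siRpl23 (-1.20 ± 0.04). Perp was at 41.7 FPKM in siRpl11 and 166, 243 and 191 in the others (-2.21 ± 0.05), and Cdkn1a at 53.9 against 114, 129 and 115 (-1.13 ± 0.05). For Mdm2 and Perp, siRpl11 thus lay between siNT and the other knockdowns. Trp53 was the reverse, at 542 FPKM in siRpl11 and 304, 359 and 317 in the others (0.73 ± 0.03). Fas was at 2.99 FPKM against 10.8, 13.2 and 12.3, and Tap1 at 5.07 against 18.7, 20.9 and 21.4.

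Genes of the 2-cell-like state were lower in siRpl11 than in the other knockdowns for all 16 tested members, under each scaling, with a median of -1.90. Zscan4d was at 11.7 FPKM in siRpl11 and at 54.8, 48.4 and 52.2 in siRpl14, siRpl18 and siRpl23. YAP and TEAD genes were lower in 9 of 12 cases, with 3 not called (9 lower and 2 higher after quantile normalization, 8 and 1 after median-ratio scaling); Cyr61 was at 16.9 FPKM against 66.3, 59.2 and 71.0 (-1.89 ± 0.05). Genes of epithelial junctions and the cytoskeleton were lower in 11 of 13 cases and higher in 1 (9 and 1 after either rescaling). Krt19 was at 3.25 FPKM against 17.6, 16.1 and 16.8, and Cldn4 at 12.5 against 56.1, 36.7 and 66.2. Lysosomal genes were lower in 29 of 36 cases and higher in 2 (24 and 5, and 23 and 5, after the rescalings).

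Pluripotency genes differed by stage in this contrast too. All 17 core factors were higher in siRpl11 than in the other knockdowns as deposited and after median-ratio scaling, and 15 were after quantile normalization. Lin28a was at 286 FPKM in siRpl11 and 150, 117 and 142 in the others (1.07 ± 0.04). Formative genes were higher in 14 of 18 cases and lower in 2 (15 and 2 after quantile normalization, 14 and 2 after median-ratio scaling). Otx2 was at 78.3 FPKM against 28.0, 47.9 and 35.7 (1.09 ± 0.04) and Dnmt3b at 54.8 against 30.6, 21.4 and 28.2 (1.02 ± 0.03). Naive factors were lower in 10 of 17 cases and higher in 2 (11 and 3 after quantile normalization, 9 and 6 after median-ratio scaling). Nanog was at 192 FPKM against 243, 259 and 254 (-0.39 ± 0.03), and Tfcp2l1 at 25.2 against 45.9, 36.4 and 45.4 (-0.73 ± 0.05).

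**Figure D4:**
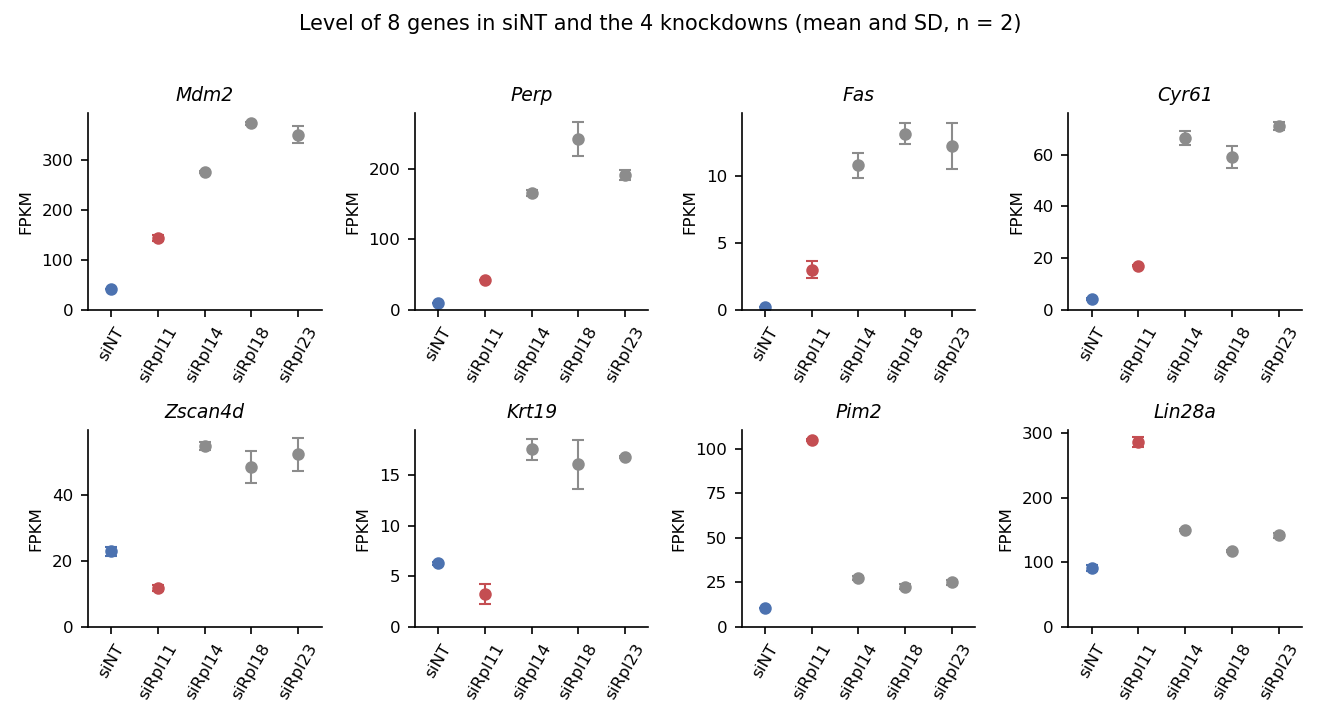
Mean FPKM and SD (n = 2, replicates 1 and 2) of 8 genes in siNT, siRpl11 and the 3 other knockdowns. Mdm2, Perp, Fas and Cyr61 lie between siNT and the other knockdowns in siRpl11, Zscan4d and Krt19 lie below siNT, and Pim2 and Lin28a are highest in siRpl11.

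Ribosome genes were mostly higher in siRpl11 than in the other knockdowns, by small amounts. Of the 46 other 60S proteins 41 were higher and the rest were not called (median 0.25), with 18 higher and 4 lower after quantile normalization and 45 higher after median-ratio scaling. These 46 include Rpl14, Rpl18 and Rpl23, the targets of the other knockdowns, so a higher level of these in siRpl11 follows from the design. They were not taken out of the counts or the median. The 40S proteins had 23 of 32 higher, but 7 higher and 7 lower after quantile normalization and 30 higher after median-ratio scaling. Factors of 60S assembly had 24 of 45 higher and 1 lower (30 and 1 after quantile normalization), factors of RNA polymerase I and small-subunit processing 34 of 52 and 2 (38 and 2), and snoRNA host genes 9 of 15 and 1 (12 higher). Rpl3 was at 726 FPKM against 816, 725 and 788 (-0.09 ± 0.05, adjusted p = 0.13), and was called lower after quantile normalization (-0.29).

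Genes of the ATF4 response were lower in siRpl11 than in the other knockdowns in 15 of 19 cases, with 4 not called and a median of -0.24. After quantile normalization 8 were lower and 3 higher, and after median-ratio scaling 8 and 1. Chaperones of the endoplasmic reticulum and the unfolded protein response were lower in 15 of 22 cases (13 lower and 3 higher, and 10 and 5, after the rescalings). Chac1 was at 2.63 FPKM in siRpl11 against 3.06, 2.92 and 2.71 (-0.10 ± 0.07, not called; 0.19 and called higher after quantile normalization). The synthetase gene Yars was at 37.4 FPKM in siRpl11 and 38.0, 35.6 and 37.4 in the other knockdowns, a difference of 0.01 ± 0.03 that was not called (adjusted p = 0.75; 0.19 and called higher after median-ratio scaling). Phgdh was lower by 0.20, a call that both rescalings ended. Of the 19 synthesis enzymes, 13 were lower in siRpl11 than in the other knockdowns and 4 higher as deposited, but 7 and 6 after quantile normalization and 5 and 5 after median-ratio scaling. As deposited, 9 glycolysis genes were lower and 4 higher. The split became 12 and 5 after quantile normalization, and 4 and 9 after median-ratio scaling.

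The single genes highest in siRpl11 against the other knockdowns included Pim2, at 105 FPKM against 27.4, 22.5 and 25.0 (2.04 ± 0.05). Fgf15, a growth factor, was at 22.7 FPKM against 5.66, 8.57 and 6.45 (1.61 ± 0.06). Tspan8 (1.63), Sall2 (1.54), Glod5 (1.54) and Map7d3 (1.47) were also among them. The lowest was Slc4a11, a membrane transporter, which stood at 8.13, 7.93 and 6.67 FPKM in siNT and 8.68, 8.38 and 6.70 in siRpl11, yet at 53.7, 61.7 and 58.5 in the other knockdowns (-2.63 ± 0.05). Fgfbp1, a carrier of fibroblast growth factors, was at 14.2 FPKM against 101, 78.7 and 88.8 (-2.56 ± 0.13), and Sfn, a p53-inducible 14-3-3 protein, at 6.69 against 39.6, 36.4 and 46.5 (-2.44 ± 0.05). The others were Usp17le (-2.39), Usp17lb (-2.38), Kbtbd11 (-2.25) and Gpx3 (-2.22). The same rule also picked the small nucleolar RNAs Snora65 and Snora3, which were listed at 0 in some libraries, so no difference is given for them.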

How the data were processed

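The authors deposited FPKM per gene. Alignment and scaling used STAR, Cuffnorm and build mm9, per the submitters' processing notes; no version, annotation or Cuffnorm option is given in the sources used here. Any scaling between libraries at that stage would hide a shift common to most transcripts. The large table held 2 columns that match no sample here, which were not used.

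A gene was kept where 2 or more of the 6 siNT and siRpl11 libraries reached 1 FPKM. A linear model with 1 term per group over the 10 libraries of the large table was fitted to log2(FPKM + 1) with limma 3.58.1 in R 4.3.3 (eBayes with trend), with no further scaling, which left 5 residual degrees of freedom. The limma script was tested on simulated data. Adjusted p-values are over all tested genes.

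The comparison, the 45 gene lists and the tests were chosen with earlier results of these data known. Genes were named by rule: Rpl11; the 15 largest rises and falls at 5 FPKM or more with the same sign in the third libraries, leaving out clone-type names; up to 5 called members with the largest difference per list, or all members of lists of at most 12; 14 genes of the ribosome, p53, ATF4, Myc and pluripotency; and the 8 highest and 8 lowest genes against the other knockdowns. Members outside these that a count left to be named are given too, and were chosen after their values were seen. Symbols that were not in the tables were not analysed here, and some genes that the rule picks are not reported here. Alternatives changed the pseudocount, filter, scaling, libraries in the fit, replicate block, trend and left out each library in turn.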

Additional observations from a re-analysis of the deposited data

How the results depend on the processing

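The counts of genes called higher and lower stayed within 1.5 times of 3264 and 5309 in every alternative run, and Rpl11 stayed lower in all of them. Between 84.3% (quantile normalization) and 99.98% (5 FPKM filter) of the called genes that could be tested again were called in the same direction; 2 genes were called in the opposite one, under median-ratio scaling. The counts at 2-fold or more depended on the pseudocount, with 382 higher and 1378 lower at 0.1 and 93 and 165 at 5. Median-ratio scaling gave 407 and 410, and quantile normalization 354 lower. Against the other knockdowns, quantile normalization gave 4205 genes higher and 2980 lower, and median-ratio scaling 4381 and 3145. The share of called genes with the same sign in the third libraries was 90.19% with no filter, 89.11% with quantile normalization and 92.58% to 93.54% when a library was left out. In these last fits the lone library of a group is assumed to vary like those of the other groups. The cause of these shifts was not tested beyond what each setting does. Of 273 genes named by rule, 2 that were called in the main fit changed sign against siNT. These were Mxd1 (0.012) and Kbtbd11 (0.014), both after quantile normalization, where neither was called. Sign changes of genes called in neither fit were not counted.

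Libraries with the same number were not taken as pairs, since the labels tie the numbers to no shared culture or day; the deviations of same-numbered siNT and siRpl11 libraries correlated at 0.226. With the replicate number as a block, 3466 genes rose and 5540 fell, and 90.99% kept their sign in the third libraries. Absolute depth is unknown, so no counting error can be given, and only 2 libraries per group enter each test.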
